A study of Mus musculus with 6 samples.

Results

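The mitochondrial ribosomal protein genes were followed in quadriceps femoris, a thigh muscle of mostly fast fibres, of Prr14-WT (WT) and Prr14-KO (KO) mice. Members were the rows of the deposited gene table whose symbol is Mrpl or Mrps followed by a number and at most 1 letter. This gave 78 of 22036 listed genes, 49 named for the large subunit (Mrpl) and 29 for the small subunit (Mrps). Each genotype has 3 libraries of nanopore cDNA reads, made from total RNA, and they are called replicates 1 to 3 in accession order. The labels give tissue and genotype only, with no age, sex, strain or type of Prr14 allele, and do not say that the libraries come from separate animals, so every p-value reflects library-to-library spread only, which may be technical.

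Mitochondrial ribosomes sit inside the organelle and translate the few mRNAs that mitochondrial DNA encodes, all for membrane subunits of oxidative phosphorylation. Their ribosomal RNA comes from mitochondrial DNA, whereas every protein is encoded in the nucleus, made in the cytosol and imported. Some of the proteins have bacterial counterparts and others are specific to mitochondria. Muscle fibres rely on this machinery to keep up their respiratory capacity, and slow, oxidative fibres hold more mitochondria than fast, glycolytic ones. Symbols do not always match the place in the particle: Mrps18a and Mrps30 proteins belong to the large subunit, and Mrps36 is now assigned to the oxoglutarate dehydrogenase complex. Subunits are given by symbol here.

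Promoter windows of these genes are shown first, because 3 short motifs that the choice of members did not use were more frequent in them than in coding windows at large. RefSeq promoter windows on GRCm38.p6, each 250 bases before to 50 bases after a transcription start, matched 69 of the 78 members in 75 windows. Motifs were searched on both strands. CCGGAAG, the core bound by ETS factors such as GABPA, was present in 34.7% of the member windows, against 11.6% of windows of protein-coding genes and 8.86% of all windows in the table. AAGATGGC, a core bound by YY1, was in 16.0%, against 3.05% and 2.75%. GCATGCGC, a core bound by NRF1, was in 10.7%, against 3.51% and 2.71%. At least 1 of these 3 was in 50.7% of member windows, against 16.7% of coding and 13.3% of all windows. None of the motifs is contained in another. TATAAA, the TATA box, was in 6.67% of member windows, against 12.6% and 13.6%. A MEF2 consensus site, a sequence bound in muscle gene promoters, was in 0 of the 75 windows and in 0.164% of all windows, a share too low to compare over 75 windows. A match describes these letters only and says nothing of binding in this muscle.

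The YY1 core sites of the members are aligned below with 8 bases on either side, motif in capitals, each read 5′ to 3′ on the strand named, with GRCm38.p6 coordinates. The site of Mrps24 was too close to the window edge to be shown with its flanks.
Mrpl32, chr13:14613264-14613287, plus strand: tccgggtaAAGATGGCagagcgcg
Mrpl35, chr6:71823746-71823769, minus strand: caggctgcAAGATGGCggcttcca
Mrpl36, chr13:73330971-73330994, minus strand: caggaagaAAGATGGCgtaaggtc
Mrpl37, chr4:107066825-107066848, minus strand: cacgggcaAAGATGGCggcgtcca
Mrpl42, chr10:95501907-95501930, minus strand: attgaagcAAGATGGCgagcgcgc
Mrpl49, chr19:6057724-6057747, minus strand: gaggcgccAAGATGGCagcagcgg
Mrps11, chr7:78783016-78783039, minus strand: aagacagaAAGATGGCggcgcccg
Mrps12, chr7:28742005-28742028, plus strand: tccactccAAGATGGCtgcgtcca
Mrps18a, chr17:46111007-46111030, plus strand: tgcgttccAAGATGGCggccctca
Mrps27, chr13:99344792-99344815, plus strand: tgcgctccAAGATGGCggctccca
Mrps7, chr11:115604150-115604173, plus strand: cagcggccAAGATGGCtgcccccg
Mrpl42, the member with the most counts in the large subunit, and Mrps12, which had the smallest p in the small subunit, are both among these genes. Their log2 fold changes, KO over WT, were of opposite sign, -0.32 and 0.49. Those of the other members with a YY1 core lay between -0.21 and 0.17. A link of the motif to the fold changes was not tested.

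The NRF1 core sites are shown in the same way, because Mrpl10, which had the smallest p among the members with a positive fold change in the large subunit, holds one. Mrpl32 holds 3 and Mrps18b holds 2. Whether members with this core differ in fold change from the others was not tested.
Mrpl10, chr11:97041440-97041463, plus strand: agctccacGCATGCGCatagcggc
Mrpl17, chr7:105811083-105811106, plus strand: cagaggacGCATGCGCagtaactc
Mrpl22, chr11:58171623-58171646, minus strand: gactatacGCATGCGCagtccgag
Mrpl32, chr13:14613109-14613132, plus strand: cctcttgcGCATGCGCaagggtca
Mrpl32, chr13:14613088-14613111, plus strand: cgctcagaGCATGCGCaggcccct
Mrpl32, chr13:14613044-14613067, minus strand: gacttaacGCATGCGCtcagcccg
Mrpl33, chr5:31613931-31613954, minus strand: cttccgggGCATGCGCgggttccg
Mrpl39, chr16:84735354-84735377, plus strand: gcgggggcGCATGCGCgcctctcc
Mrpl9, chr3:94443300-94443323, minus strand: gaccccgcGCATGCGCagctgcgc
Mrps18b, chr17:35916648-35916671, minus strand: ggcccgacGCATGCGCactgggag
Mrps18b, chr17:35916397-35916420, minus strand: tgtcccgaGCATGCGCagtcgctc

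Longer windows, from 250 bases before to 8 bases after the start, are printed for Mrpl10 and Mrps12, the genes of each subunit with a positive fold change and the smallest p. The capitals mark the NRF1 core in Mrpl10 and, in Mrps12, the YY1 core in reverse orientation and the ETS core at the start.
Mrpl10, chr11:97041332-97041589, plus strand: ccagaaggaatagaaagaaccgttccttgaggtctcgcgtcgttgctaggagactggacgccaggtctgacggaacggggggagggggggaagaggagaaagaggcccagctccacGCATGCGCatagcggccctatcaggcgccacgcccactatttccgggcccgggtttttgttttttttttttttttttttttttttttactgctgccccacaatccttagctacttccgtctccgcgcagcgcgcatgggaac
Mrps12, chr7:28741814-28742071, minus strand: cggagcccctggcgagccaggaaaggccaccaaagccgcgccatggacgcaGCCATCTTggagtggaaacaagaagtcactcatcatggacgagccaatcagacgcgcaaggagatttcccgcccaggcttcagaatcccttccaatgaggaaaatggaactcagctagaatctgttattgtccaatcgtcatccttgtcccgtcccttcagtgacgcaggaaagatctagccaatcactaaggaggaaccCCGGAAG
Mrps12 lies head to head with Sars2, the mitochondrial seryl-tRNA synthetase gene, whose annotated start is 172 bases away, and its YY1 core reads forward on the Sars2 strand.

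The libraries held between 1436099 and 1712975 read counts over the listed genes. Prr14, the targeted gene, had 9, 11 and 12 counts in WT and 4, 10 and 3 in KO, with a log2 fold change of -1.10 (SE 0.46, edgeR adjusted p = 0.196; -1.80 without KO replicate 2), and the sources used here do not say which part of the gene was removed. All 8 myofibre markers, among them Acta1, Ckm and Myh4, were present, and they made up 17.5 to 19.8% of counts in WT and 15.2 to 16.4% in KO. The 20 most abundant genes took 39.2 to 44.6% of counts in WT and 34.3 to 37.0% in KO. The remaining genes together thus held a larger share of the reads in KO, which is why small differences are given under more than 1 scaling. Levels are CPM, counts scaled to a common library size, with TMM factors that set the bulk of genes equal, and shares are percent of the listed counts. In bulk muscle, fewer cells of a type and less RNA per cell cannot be told apart.

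None of the mitochondrial ribosomal protein genes passed the test between genotypes. Of 77 members tested, 0 rose and 0 fell at a Benjamini-Hochberg adjusted p under 0.05 in edgeR's quasi-likelihood test. Of all 6680 genes tested, 6.26% were called, 2.98% as higher and 3.28% as lower. At an unadjusted p under 0.05 there were 7 of 49 large-subunit and 4 of 28 small-subunit genes, 14.3% each, against 20% of all genes. DESeq2 and limma-voom also called 0 in each subunit. The exception to testing was Mrps30, which had 2 to 7 counts per library and did not pass the filter on low counts.

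Fold changes of the members lay close together. In the large subunit the median log2 fold change was -0.06, with quartiles of -0.20 and 0.13 and a range from -0.53 (Mrpl19) to 0.74 (Mrpl10), and 20 of 49 were positive. In the small subunit the median was -0.02, with quartiles of -0.16 and 0.16 and a range from -0.58 (Mrps26) to 0.97 (Mrps2), and 13 of 28 were positive. Over all tested genes the median was 0.02, with quartiles of -0.23 and 0.27. A log2 fold change within 0.5 of 0 was found for 73 of the 77 members, 94.8%, against 77.5% of all tested genes. The 95% interval lay within a 2-fold change either way for 72 members, 93.5%, against 67.1% of all tested genes, and the other members were Mrpl10, Mrpl19, Mrps2, Mrps24 and Mrps26. Members were also read more deeply than the typical gene, at a median of 131 counts per library against 36.3. Both the intervals and the scatter of fold changes narrow with depth. Whether members spread less than genes of like depth was not tested.

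**Figure D1:**
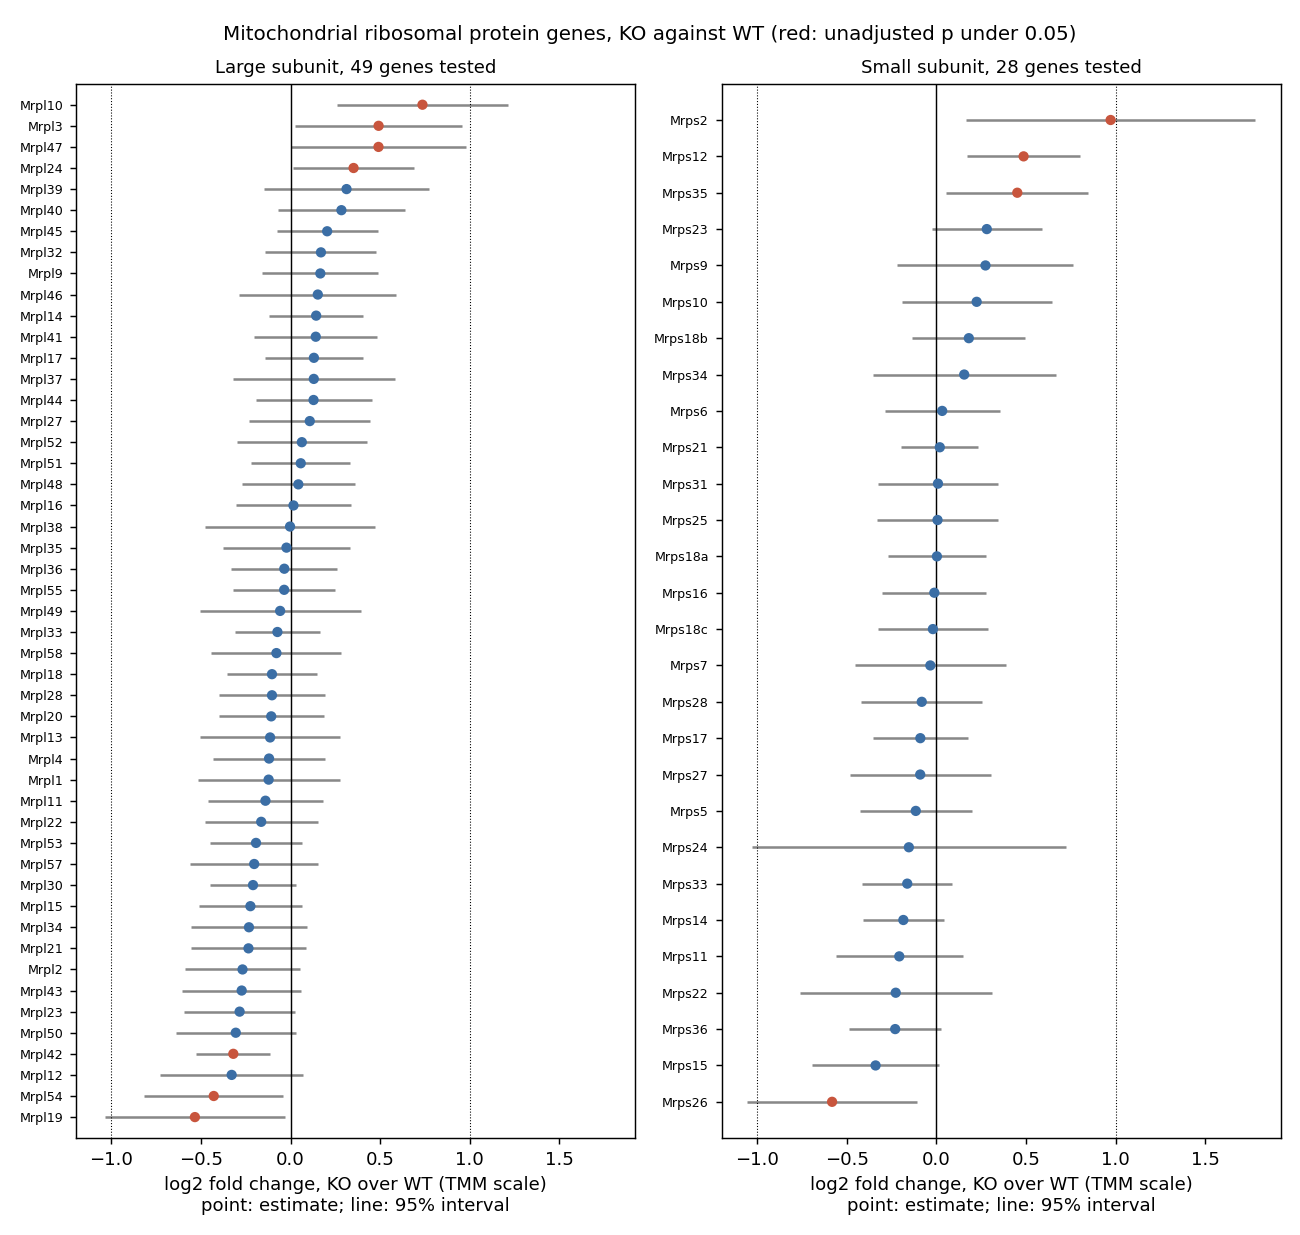
Log2 fold change of each tested mitochondrial ribosomal protein gene, KO over WT on the TMM scale (x axis), with genes on the y axis and the 95% interval as a line. Red points have an unadjusted p under 0.05, none passed after adjustment, and most intervals cross 0 and stay inside the dotted lines at a 2-fold change.

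The members were also split by evolutionary origin. The 30 large-subunit genes with bacterial counterparts had a median log2 fold change of -0.10, and the 19 specific to mitochondria had 0.04. For the small subunit, here without Mrps18a, Mrps30 and Mrps36, the medians were -0.03 (16 genes) and 0.01 (10 genes). The differences between these groups were not tested.

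Summed over the large subunit, the WT libraries held 7990, 8838 and 9096 counts and the KO libraries 8703, 9383 and 10025, in replicate order. For the small subunit the sums were 4714, 5192 and 5289 in WT and 5346, 5616 and 6159 in KO. Raw sums follow the depth of each library and are not compared as they stand. On the TMM scale the large-subunit sum averaged 6027 ± 199 CPM over WT libraries and 5643 ± 281 CPM over KO libraries (SD, n = 3 each), and the small-subunit sum was 3533 ± 90.9 and 3436 ± 143 CPM. The libraries of the genotypes overlapped for both sums. The difference in means exceeded the SD of either genotype for the large subunit. Without Mrpl42 the means were 5083 ± 182 and 4887 ± 234 CPM, and the log2 ratio went from -0.09 to -0.06. The difference then lay between the SDs of the genotypes, as it did for the small subunit.

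As a share of listed counts the direction was the opposite one. The large subunit took 0.556, 0.557 and 0.531% in WT and 0.581, 0.630 and 0.597% in KO. The small subunit took 0.328, 0.327 and 0.309% in WT and 0.357, 0.377 and 0.367% in KO. On this scale every KO library lay above every WT library, by 1.10-fold in the mean for the large and 1.14-fold for the small subunit. No p is given for a sum over the members. When libraries were scaled by their totals the median of the log2 fold changes moved from 0.02 to 0.25 over all genes, that of the large subunit to 0.17 and that of the small subunit to 0.22. A change of scaling moves all genes nearly alike, so the distance of the members from the other genes is not altered by it. With TMM scaling the median of the large subunit minus that of all genes was -0.08, and -0.12 to -0.02 with 1 library left out. For the small subunit it was -0.03, and -0.07 to 0.01, above 0 without WT replicate 3.

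**Figure D2:**
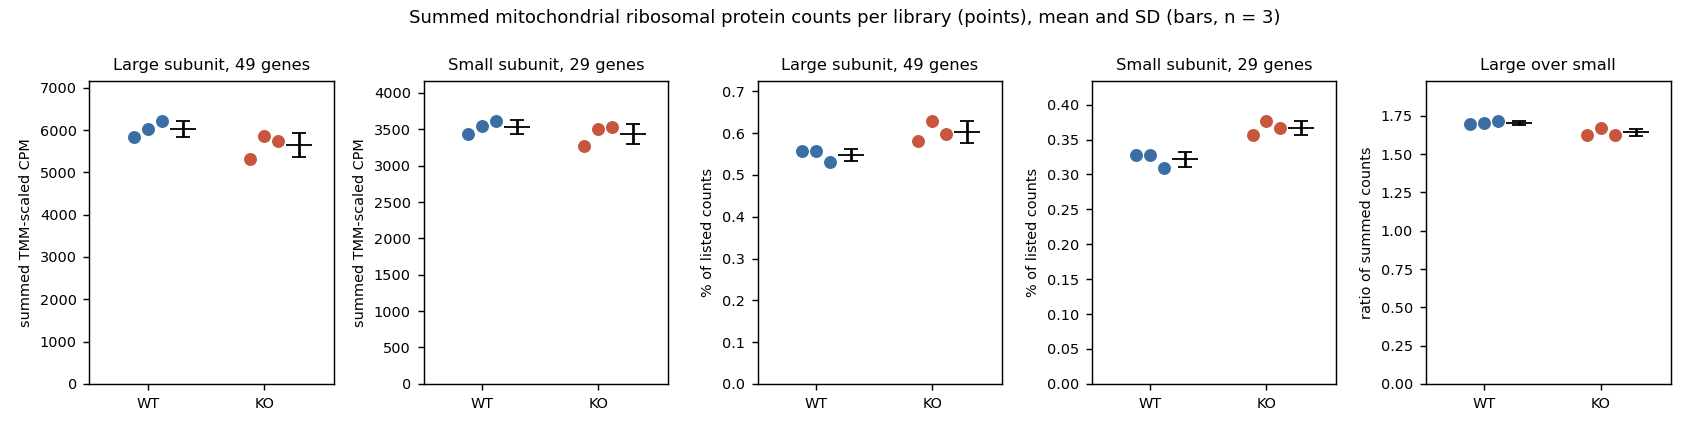
Summed counts of the mitochondrial ribosomal protein genes in each library (points), as TMM-scaled CPM, as % of listed counts, and as the ratio of large to small subunit, with mean and SD (bars, n = 3). KO libraries overlap WT on the TMM scale and lie above WT as a share of counts, while the ratio is slightly lower in KO.

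Calls under library totals followed the same shift. With that scaling 7 members passed as higher and 0 as lower: Mrpl10, Mrpl3, Mrpl24 and Mrpl45 of the large subunit and Mrps12, Mrps35 and Mrps23 of the small one. Over all genes that scaling called 9.72% higher and 2.22% lower, 649 and 148 genes, against 199 and 219 with TMM, and the share of members called higher was 9.09%. The member count is thus close to the share over all genes on that scale. Mrps23 is named only for this call, after its value was seen.

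**Figure D3:**
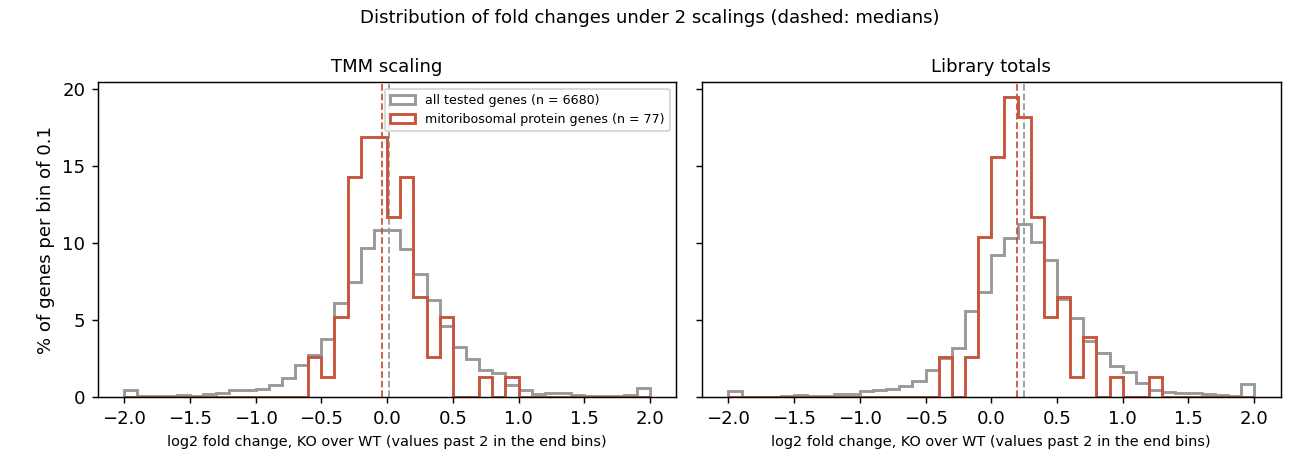
Distribution of log2 fold changes (x axis, KO over WT) as % of genes per bin of 0.1 for all 6680 tested genes and the 77 members, under TMM and under library totals, with medians dashed. Members, which were read more deeply, form a narrower peak than all genes, and both peaks move to the right together with library totals.

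Some members separated the genotypes completely, library by library. With TMM scaling 11 members (14.3%) had all KO libraries above all WT libraries and 14 (18.2%) had all below, against 13.5% and 12.2% of all tested genes (25.8% in either direction). With library totals the counts were 31 above (40.3%) and 0 below, against 28.2% and 5.21%.

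The ratio of large-subunit to small-subunit counts needs no scaling. It was 1.695, 1.702 and 1.720 in WT and 1.628, 1.671 and 1.628 in KO, so all KO libraries lay below all WT libraries. The difference was smaller without Mrpl42, which was left out after its lower values in KO were seen, so that a smaller difference was bound to follow. Without Mrpl42 the ratio was 1.422, 1.443 and 1.451 in WT and 1.415, 1.448 and 1.404 in KO, and the genotypes overlapped. The means were then 1.439 ± 0.015 in WT and 1.422 ± 0.023 in KO, against 1.706 ± 0.013 and 1.642 ± 0.025 with it.

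Mrpl42, a mitochondria-specific protein of the large subunit, took the most counts in that subunit. Its level was 938, 917 and 975 CPM in the WT libraries and 698, 780 and 791 CPM in the KO libraries (ENSMUSG00000062981, GRCm38 chr10:95480805-95501940, minus strand). On this TMM scale all KO libraries were below all WT libraries. The log2 fold change was -0.32 (SE 0.10, 95% interval -0.53 to -0.11, edgeR unadjusted p = 0.00488, adjusted p = 0.065). With library totals it was -0.09 (edgeR adjusted p = 0.572), and the groups overlapped. Its share of large-subunit counts, which no scaling alters, was 15.7 ± 0.43% in WT and 13.4 ± 0.34% in KO.

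Mrpl10 and Mrpl12 build the flexible stalk that recruits translation factors to the ribosome, with Mrpl11, Mrpl53 and Mrpl54 at or near its base. Mrpl10 (GRCm38 chr11:97041560-97049213, plus strand) had 22.6, 25.2 and 25.3 CPM in WT and 50.8, 40.6 and 30.9 CPM in KO. All KO libraries were above WT, with KO replicate 1 the farthest. The log2 fold change was 0.74 (SE 0.22, 95% interval 0.26 to 1.21, edgeR adjusted p = 0.068). It passed as higher with no filter (edgeR adjusted p = 0.0304), with library totals (0.0159), with library totals less the 20 most abundant genes (0.0427), and without KO replicate 3 (0.0365, log2 fold change 0.90). The remaining alternatives left it above the threshold. An antisense transcript shares exonic bases with Mrpl10, and the use of strand in counting is not given.

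The other stalk genes pointed the other way on the TMM scale without passing. Mrpl12 had 146, 151 and 188 CPM in WT and 92.4, 157 and 136 CPM in KO, a log2 fold change of -0.33 (SE 0.18), and the groups overlapped. It was -0.14 without KO replicate 1 and -0.50 without KO replicate 2. Mrpl54 had 70.0, 86.6 and 82.2 CPM in WT and 47.7, 74.3 and 55.6 CPM in KO, a log2 fold change of -0.43 (SE 0.18, edgeR adjusted p = 0.202), and KO replicate 2 lay within the WT range. Mrpl11 and Mrpl53 were at -0.14 and -0.19 on the log2 scale, and with library totals at 0.09 and 0.04. The ratio of Mrpl10 to Mrpl12 counts was 0.155, 0.167 and 0.135 in WT and 0.550, 0.258 and 0.227 in KO, a description of unequal change between neighbours in the particle that was chosen after the values were seen.

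Proteins around the exit tunnel, through which the new chain leaves, are Mrpl22, Mrpl23, Mrpl24 and Mrpl47, together with Mrpl45, which holds the ribosome to the inner membrane. Mrpl24 had 55.5, 63.4 and 61.6 CPM in WT and 84.4, 66.8 and 79.1 CPM in KO, a log2 fold change of 0.35 (SE 0.16, edgeR adjusted p = 0.232). Mrpl47 had 24.1, 26.6 and 15.8 CPM in WT and 31.2, 30.0 and 32.1 CPM in KO, a log2 fold change of 0.49 (SE 0.23, edgeR adjusted p = 0.246). KO and WT did not overlap for either gene, and Mrpl47 stood at 0.29 without WT replicate 3. Mrpl45, Mrpl22 and Mrpl23 stood at 0.20, -0.16 and -0.28 on the log2 scale and did not pass, and Mrpl23 was at -0.15 without WT replicate 3. Mrpl24 and Mrpl47 each share exonic bases with coding genes on the opposite strand.

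The central protuberance, the crest of the large subunit, includes Mrpl18, Mrpl27, Mrpl38, Mrpl40, Mrpl46, Mrpl48 and Mrpl52. Its 7 genes had log2 fold changes between -0.10 and 0.28. An unadjusted p under 0.05 was found for 0 of them, against 20% of all tested genes, and 7 genes are too few to compare with that share. Mrpl40 was the farthest from 0, with 46.7, 45.7 and 40.4 CPM in WT and 52.6, 57.5 and 51.6 CPM in KO. Mrpl52 spread widely within KO, with 168, 285 and 253 CPM, and less within WT, with 214, 232 and 229 CPM. Mrpl58, a peptidyl-tRNA hydrolase built into the large subunit, averaged 87.2 ± 13.9 CPM over WT libraries and 82.7 ± 12.7 CPM over KO libraries.

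Further large-subunit genes with small p were Mrpl19 and Mrpl3. Mrpl19, which has a bacterial counterpart, had 36.5, 23.9 and 25.3 CPM in WT and 18.4, 18.1 and 22.3 CPM in KO, a log2 fold change of -0.53 (SE 0.23, edgeR adjusted p = 0.220). Mrpl3, whose protein reaches towards the peptidyl transferase centre, had 24.1, 22.5 and 28.1 CPM in WT and 42.8, 33.1 and 29.2 CPM in KO, a log2 fold change of 0.49 (SE 0.22, edgeR adjusted p = 0.228). On the TMM scale the groups did not overlap for either gene, and neither passed. Mrpl19 stood at -0.35 without WT replicate 1 and Mrpl3 at 0.32 without KO replicate 1. With library totals Mrpl19 was at -0.31 and its groups overlapped, while Mrpl3 was at 0.73 and passed (edgeR adjusted p = 0.049).

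In the small subunit Mrps12 had the smallest p. Its protein sits at the decoding centre, where codon and anticodon are matched. Mrps12 (GRCm38 chr7:28739641-28741820, minus strand) had 81.0, 73.6 and 65.7 CPM in WT and 106, 104 and 98.5 CPM in KO, and all KO libraries were above WT. The log2 fold change was 0.49 (SE 0.15, 95% interval 0.17 to 0.80, edgeR unadjusted p = 0.00495, adjusted p = 0.066). It passed as higher with library totals (edgeR adjusted p = 0.0117) and with library totals less the 20 most abundant genes (0.0311).

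Mrps2, which has a bacterial counterpart, had the largest positive fold change of the members and the fewest reads of those tested. It had 5, 5 and 7 counts in WT and 12, 14 and 13 in KO, and the groups did not overlap. The means were 3.95 ± 0.74 and 7.85 ± 0.78 CPM. The log2 fold change was 0.97 (SE 0.38, 95% interval 0.17 to 1.78, edgeR adjusted p = 0.160), so its size is poorly fixed at this depth.

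Mrps26, Mrps35 and Mrps15 complete the 5 small-subunit genes with the smallest p. Mrps26, specific to mitochondria, had 29.9, 24.5 and 23.3 CPM in WT and 18.4, 15.6 and 17.8 CPM in KO, with no overlap and a log2 fold change of -0.58 (SE 0.22, edgeR adjusted p = 0.152). Mrps35, also mitochondria-specific, had 46.7, 48.4 and 45.9 CPM in WT and 56.3, 81.8 and 55.0 CPM in KO, a log2 fold change of 0.45 (SE 0.19, edgeR adjusted p = 0.185), with KO replicate 2 the highest. Without that library the fold change of Mrps35 was 0.24. Mrps15, which has a bacterial counterpart, averaged 94.5 ± 2.77 CPM over WT and 74.6 ± 14.7 CPM over KO, again with no overlap. Its log2 fold change was -0.34 (SE 0.17), and -0.19 without KO replicate 1. With library totals Mrps26 and Mrps15 were at -0.35 and -0.11 and the groups overlapped for both, while Mrps35 was at 0.68.

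**Figure D4:**
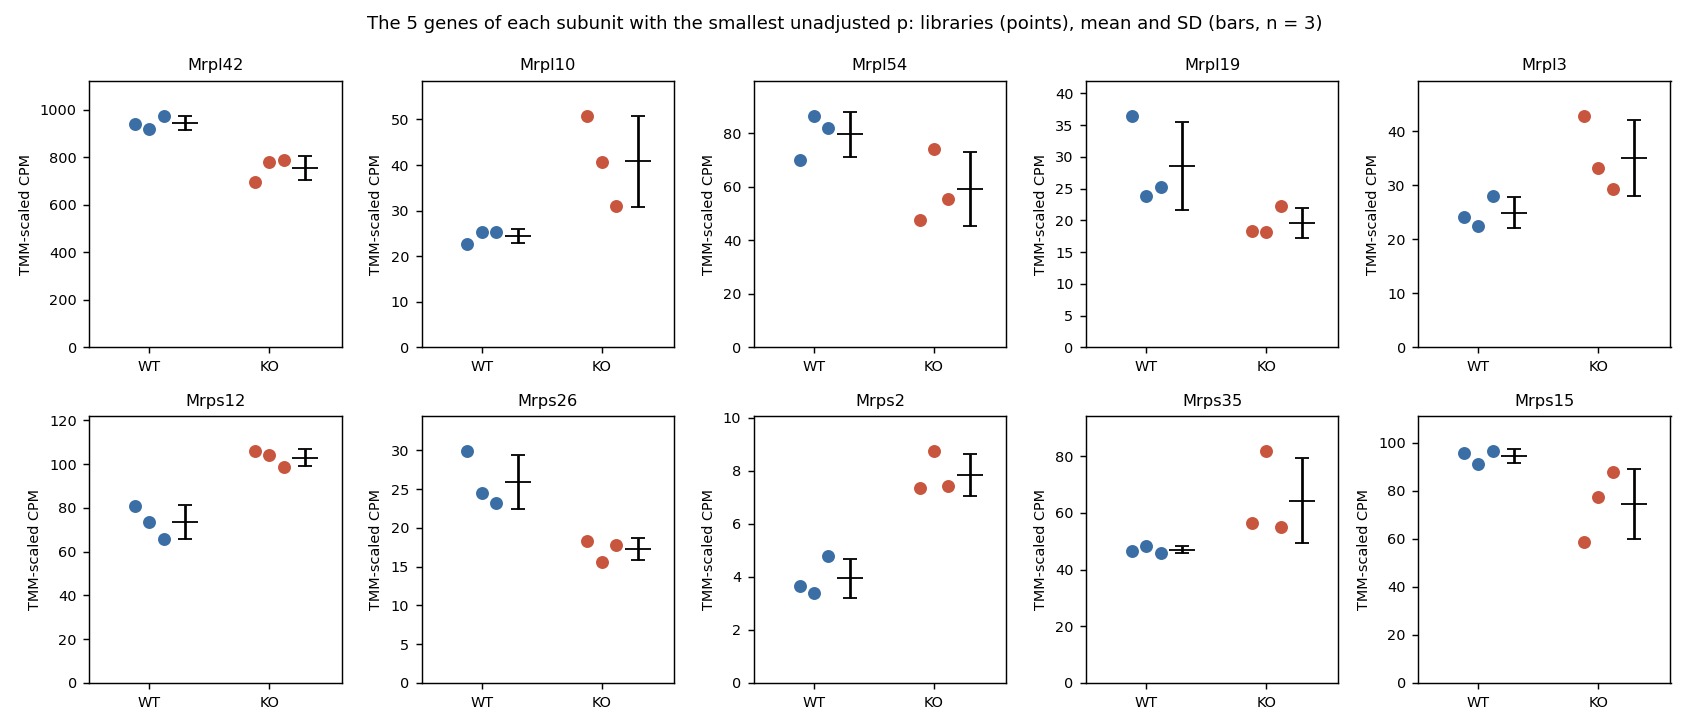
TMM-scaled CPM (y axis) of the 5 genes of each subunit with the smallest unadjusted p, by library (points) with mean and SD (bars, n = 3). A small p favours genes whose groups separate, so the 9 genes without overlap are a description. Over all tested members 25 of 77 (32.5%) had no overlap in either direction, and over all genes 25.8%.

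Mrps18a, Mrps18b and Mrps18c are paralogs that hold different places in the ribosome. Their levels were 171 ± 13 and 172 ± 13.5 CPM, 87.8 ± 6.08 and 99.6 ± 10.2 CPM, and 127 ± 13.9 and 126 ± 12.2 CPM in WT and KO. The log2 fold changes were 0.00, 0.18 and -0.02, with 95% intervals of -0.27 to 0.28, -0.13 to 0.50 and -0.33 to 0.29. A 2-fold change lies outside each of these intervals.

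The relative amounts of the members were alike in all libraries. Spearman correlations of the 78 counts across members lay from 0.944 to 0.987 for library pairs of the same genotype and from 0.944 to 0.981 for pairs of different genotypes. Members of 1 library are not independent replicates, and each keeps its own transcript length in every library. Among the members Mrpl42 stood highest, at 944 CPM in WT and 756 in KO, followed by Mrps21 at 630 and 639 CPM. Mrps2 and Mrps30 stood lowest, at 3.95 and 3.46 CPM in WT and 7.85 and 2.23 CPM in KO. These levels are not divided by transcript length.

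The genes that work with the mitochondrial ribosome showed no call either. Of 65 tested genes of 6 partner lists, 0 rose and 0 fell, where 6.26% of all tested genes were called. An unadjusted p under 0.05 was found for 9 of them (13.8%), against 20% of all tested genes. Their median log2 fold change was 0.04. DESeq2 and limma-voom also called 0. The lists were other ribosome proteins (6 tested), translation factors (9), ribosome assembly (18), tRNA synthetases (14), expression of mitochondrial DNA (12) and regulators of mitochondrial biogenesis (6), with medians of 0.02, 0.09, 0.01, 0.11, -0.08 and 0.13.

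Among single partners, the small-subunit proteins Dap3 and Ptcd3 were at 0.27 and 0.20 on the log2 scale, and the elongation factors Tufm, Tsfm and Gfm1 at 0.05, 0.07 and 0.38. Gfm1 passed as higher without KO replicate 1 (log2 fold change 0.57, edgeR adjusted p = 0.0438) and stood at 0.23 without KO replicate 2. The initiation factor Mtif2 was at 0.09. Tfam, which packages mitochondrial DNA and starts its transcription, had 36, 51 and 45 counts in WT and 29, 23 and 39 in KO, with no overlap of the groups' CPM. The means were 30.6 ± 4.25 and 18.2 ± 4 CPM, a log2 fold change of -0.75 (SE 0.23, edgeR adjusted p = 0.072). It had the smallest p of the partners. The coactivator Ppargc1a was at -0.33 (SE 0.25) and the mRNA-stabilising Lrpprc at 0.44 (SE 0.44). Leaving out 1 library gave -0.59 (WT replicate 3) to -0.19 (WT replicate 2) for Ppargc1a and -0.20 (KO replicate 2) to 0.80 (KO replicate 1) for Lrpprc. Polrmt, the mitochondrial RNA polymerase, had 3 to 12 counts per library and was not tested, and the mitochondrial ribosomal RNAs were not analysed here.

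The mRNAs that the mitochondrial ribosome translates made up less in KO relative to its protein genes, and so did the abundant myofibre transcripts. With TMM scaling the fold changes of all 13 were below 0 on the log2 scale, with a median of -0.35. Of the 13, 1 was called lower, mt-Nd1, where 3.28% of all tested genes were called lower. With library totals the median was -0.12 and 2 of the 13 were positive. Summed on the TMM scale, the 13 were lower in KO without overlap. As a share of listed counts they took 5.82, 6.34 and 5.47% in WT and 4.79, 5.75 and 5.10% in KO, and the groups overlapped. The ratio of their summed counts to those of the 78 members, which no scaling alters, was 6.58, 7.17 and 6.51 in WT and 5.11, 5.71 and 5.29 in KO. All KO libraries lay below all WT libraries, at 0.795 of the WT mean. Without mt-Nd1 the ratio was 3.97 ± 0.18 in WT and 3.41 ± 0.24 in KO (SD, n = 3 each), again with no overlap. The same ratio for the 8 myofibre markers was 21.3 ± 1.99 in WT and 16.1 ± 0.99 in KO, 0.757 of the WT mean and without overlap, so the lower ratio was not particular to the mitochondrial mRNAs.

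Markers of fibre type and of other cells were set beside these values. Summed counts of 10 slow-fibre markers, all detected, were 692, 600 and 134 in WT and 641, 2526 and 273 in KO. As a share of counts these were 0.0482, 0.0378 and 0.00782% in WT and 0.0428, 0.170 and 0.0163% in KO. The members took 0.885, 0.884 and 0.840% in WT and 0.938, 1.01 and 0.964% in KO. KO replicate 2 was highest and WT replicate 3 lowest in both, but KO replicate 3 was next to lowest for the slow-fibre markers and next to highest for the members. With TMM scaling WT replicate 3 had the highest sum of the members, 9848 CPM, against 8596 to 9562 CPM in the other libraries. Summed TMM-scaled levels in WT and KO were 1348 to 2166 and 1340 to 2124 CPM for 6 fibroblast markers, 325 to 482 and 431 to 460 CPM for 6 endothelial markers, 112 to 387 and 137 to 150 CPM for 6 macrophage markers, 1623 to 4002 and 1401 to 2016 CPM for 5 red blood cell markers, and 146 to 251 and 130 to 197 CPM for 5 Schwann cell markers. Those ranges overlap. The 6 adipocyte markers summed to 3799 to 6691 CPM over WT and 1890 to 2370 CPM over KO, without overlap. These were mostly counts of Car3, which muscle fibres also express and which was called lower (edgeR adjusted p = 0.020). Adipoq, Cfd and Retn were at log2 fold changes of 0.20, 0.32 and 0.22 and Lep at -0.61, all with overlapping groups, and Plin1 was not tested. No marker of these lists was at 0 in all libraries, and their part in the members' values was not tested.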

How the data were processed

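Total RNA from quadriceps femoris of 3 WT and 3 KO samples was read as amplified nanopore cDNA, per the labels' protocols. The authors deposited raw whole-number counts for 22036 Ensembl genes, per the file headers. Deposited CPM were not used. Minimap2, DESeq2 1.6.3 and GRCm38 are named per the submitters' processing notes; for the counter, its annotation and strand setting nothing is given in the sources used here. Symbols came from a reference table by identifier (22022 matched), positions from GENCODE M21 on GRCm38, and promoters from RefSeq.

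The test used edgeR 4.0.16 under R 4.3.3: filterByExpr (minimum count 10, minimum total 15) left 6680 genes, TMM scaling, robust quasi-likelihood test, Benjamini-Hochberg adjustment over all tested genes at 0.05. The SE is the fold change divided by the square root of F, and 95% intervals use the test's t distribution. A level of 3 counts equals 1.72 to 2.19 CPM, and reads carry no stated molecular identifiers. The steps were tested on simulated counts (KO against WT, 6761 genes, 200 changed): 20.8% of changed genes were called at 1.5-fold, 49.0% at 2-fold and 97.9% at 4-fold, and 11 of 134 calls were false.

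Alternatives were DESeq2 size factors, upper-quartile scaling, library totals with or without the 20 most abundant genes, no filter, a 5 CPM minimum over 3 libraries, the tools DESeq2 (1.42.0) and limma-voom (3.58.1), non-robust dispersion, and leaving out each library. Named genes were members past the threshold, the 5 of each subunit with the smallest p, the stalk, exit tunnel and central protuberance genes, Mrps12, Mrps18a to Mrps18c, Mrps30, Mrpl58, a set of partners, and Prr14. Mrps21, Mrps23, mt-Nd1, Casq2, Psma2 and Sars2 were named after their values were seen. Members and lists were chosen with earlier results of these data known. Exonic bases are shared with another gene by 33 members, 28 on the opposite strand.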

Additional observations from a re-analysis of the deposited data

How the results depend on the processing

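Scaling changed the counts of higher genes most, and the filter the count of lower genes. With library totals, 649 genes were higher over all genes tested (199 with TMM), 4 large-subunit, 3 small-subunit and 5 partner genes were higher, and the summed levels were 0.14 (large) and 0.19 (small) on the log2 scale, KO over WT, in place of -0.09 and -0.04. With library totals less the 20 most abundant genes these were 1, 1 and 1 genes, -0.0079 and 0.047. With no filter 344 genes were higher, 362 lower (219 with the filter) and 1 large-subunit gene higher. Of the 77 members, 32 went from a negative to a positive fold change with library totals and 0 the other way. Among the named genes, signs turned with library totals for Mrpl11 (0.088), Mrpl18 (0.125), Mrpl22 (0.069), Mrpl38 (0.234), Mrpl53 (0.037), Mrpl58 (0.16) and Mrps18c (0.22), with totals less the 20 genes for Mrpl38 (0.084), Mrpl58 (0.0083) and Mrps18c (0.069), and for Mrps18a with DESeq2 size factors (-0.014), upper-quartile scaling (-0.0057), no filter (-0.0046) and DESeq2 (-0.014). No member passed as lower in any alternative.

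With 1 library left out, 83 to 179 genes were higher and 154 to 187 lower, 0 to 1 large-subunit, 0 small-subunit and 0 to 2 partner genes were higher, and the sums ranged from -0.147 to -0.054 (large) and -0.088 to -0.0049 (small). The count of 83 was without WT replicate 2, 101 without WT replicate 1 and 129 without WT replicate 3. Fold changes that turned sign in this way ranged from -0.20 to 0.80 (Lrpprc), -0.16 to 0.10 (Mrpl38), -0.084 to 0.30 (Mrpl46), -0.083 to 0.14 (Mrpl48), -0.10 to 0.26 (Mrpl52), -0.21 to 0.043 (Mrpl58), -0.081 to 0.053 (Mrps18a), -0.12 to 0.063 (Mrps18c), -0.17 to 0.21 (Tsfm) and -0.093 to 0.13 (Tufm). Sums without Mrpl42, without Mrps21 or with subunits by structure, chosen after seeing the data, moved by less than the replicate spread. The cause of these changes was not tested. No paired analysis was possible because replicate numbers follow accession order and pair no samples.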

Other observations

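Several member genes lie head to head with another coding gene, within 500 bases on the opposite strand. This holds for 17 of the 78 members in GENCODE M21, and 9 of the pairs had both genes tested. In 1 of these 9 pairs the neighbour was called, where 6.26% of all tested genes were called, and 9 genes are too few to compare with that share. The neighbour was Psma2, a proteasome core subunit gene that starts 75 bases from Mrpl32. It rose from 414, 404 and 405 CPM in WT to 652, 535 and 574 CPM in KO. Its fold change was 0.53 on the log2 scale (SE 0.11, edgeR adjusted p = 0.007). Mrpl32 itself was at 0.17 on the log2 scale and did not pass. Whether the fold changes of the pair differ was not tested. Sars2, the neighbour of Mrps12, was at 0.18 (SE 0.30).

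A search of the longest coding transcript of each member against all GENCODE M21 transcripts, at 95% identity or more over at least 50% of its length, found another gene for 7 of the 78 members. For Mrpl22, Mrpl27, Mrps21 and Mrpl53 the match was on the same strand, and the counts of these 4 are uncertain to the extent that reads were assigned to either gene. The match of Mrpl53 was Gm42688, which shares its exonic bases at the same place in the genome and had 9 counts over all libraries. For Mrps18b, Mrps25 and Mrps34 it was an overlapping gene on the opposite strand.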
